A study of Mus musculus with 45 samples.

Results

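The genes described here are 32 components of the mouse rod photoreceptor and its outer segment, the stack of membrane discs in which a rod captures light. They were chosen by name, from textbook knowledge of the rod, as the rows of 3 deposited tables whose gene symbol equals a listed one. All 32 were found, out of 36172 genes in each table. RNA had been sequenced from the retina, cortex and hippocampus of 3-month-old mice of both sexes. The animals had been given either tamoxifen or sunflower oil, the vehicle. Tamoxifen is the drug used to switch on tamoxifen-dependent Cre recombinase, and the series title names Cre induction. The sources used here give no strain, genotype, dose or interval between dosing and tissue collection.

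The retina was represented by 4 tamoxifen females, 3 vehicle females, 4 tamoxifen males and 4 vehicle males. For these groups, taken in that order, there were 4, 3, 3 and 4 cortex libraries and 4, 3, 4 and 3 hippocampus libraries. Animals carry the numbers 951 to 954 (tamoxifen females), 955, 957 and 958 (vehicle females), 959 to 962 (tamoxifen males) and 963 to 966 (vehicle males), and the 3 tissues came from the same animals. Libraries held 9143811 to 18253874 counts in the retina, 10259768 to 22375163 in the cortex and 31154309 to 44153244 in the hippocampus. The cortex library of animal 962 was nearly empty and was left out. The 9 listed markers of cortical and hippocampal neurons summed to 7593 to 9030 in the cortex, 7427 to 8875 in the hippocampus and 3397 to 3981 in the retina, in counts per 1000000 counts of the library (CPM). Levels are in CPM, scaled by edgeR's trimmed mean of M values (TMM) over the genes tested. These are bulk samples, so fewer rods and less RNA per rod cannot be told apart.

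In darkness, cyclic GMP holds the cation channels of the outer segment open. Light activates the visual pigment, which activates the G protein transducin, which in turn unleashes a phosphodiesterase that destroys cyclic GMP and so closes the channels. A kinase, an arrestin and a GTPase-accelerating complex end the response, and calcium-sensing proteins drive guanylate cyclase to restore cyclic GMP. The transcription factors Nrl, Nr2e3 and Crx direct the expression of these genes, and several of the genes, Crx among them, are also used by cones or by the pineal gland.

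The bases upstream of the gene starts are shown for 4 rod genes whose windows hold a match to a photoreceptor motif and, for contrast, for Gnb1, a G protein subunit used throughout the brain, whose window holds none. Capitals mark TAATCC or its reverse complement GGATTA, the core site that homeobox factors of the Crx type are known to bind. Each run is the 250 bases before the start, 5′ to 3′ on the gene's strand, from RefSeq on GRCm38.p6. The intervals are chr1:87803430-87803679 (plus strand) for Sag, chr6:3993758-3994007 (plus) for Gngt1, chr8:95306586-95306835 (minus) for Cngb1, chr7:15879956-15880205 (minus) for Crx and chr4:155491111-155491360 (plus) for Gnb1.
Sag: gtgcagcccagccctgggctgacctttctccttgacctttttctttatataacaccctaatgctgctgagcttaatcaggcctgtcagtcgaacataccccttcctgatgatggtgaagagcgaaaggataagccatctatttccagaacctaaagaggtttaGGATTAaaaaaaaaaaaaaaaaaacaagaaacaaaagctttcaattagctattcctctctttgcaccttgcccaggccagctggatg
Gngt1: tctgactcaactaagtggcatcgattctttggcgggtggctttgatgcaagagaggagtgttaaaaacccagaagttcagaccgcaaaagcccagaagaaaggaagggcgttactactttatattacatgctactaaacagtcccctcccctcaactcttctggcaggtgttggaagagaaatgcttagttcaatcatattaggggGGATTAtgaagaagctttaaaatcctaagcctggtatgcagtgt
Cngb1: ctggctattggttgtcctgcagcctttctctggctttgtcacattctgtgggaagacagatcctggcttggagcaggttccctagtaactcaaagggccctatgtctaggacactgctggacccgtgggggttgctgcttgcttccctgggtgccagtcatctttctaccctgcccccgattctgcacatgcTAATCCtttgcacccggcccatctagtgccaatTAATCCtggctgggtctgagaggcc
Crx: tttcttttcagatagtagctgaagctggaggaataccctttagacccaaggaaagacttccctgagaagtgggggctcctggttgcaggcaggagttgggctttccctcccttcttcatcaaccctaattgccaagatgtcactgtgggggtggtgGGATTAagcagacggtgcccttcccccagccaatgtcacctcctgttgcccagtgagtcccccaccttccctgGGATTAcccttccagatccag
Gnb1: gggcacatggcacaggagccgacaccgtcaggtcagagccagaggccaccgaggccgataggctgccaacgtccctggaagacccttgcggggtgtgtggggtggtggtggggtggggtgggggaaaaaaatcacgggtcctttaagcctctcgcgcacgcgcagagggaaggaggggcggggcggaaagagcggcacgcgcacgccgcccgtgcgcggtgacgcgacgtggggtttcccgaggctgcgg

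The first base of the match lay 87 bases before the start in Sag and 44 in Gngt1. Cngb1 held matches at 58 and 25 bases before its start, and Crx at 94 and 21. A promoter window of 300 bases (250 before to 50 after the start) was at hand for 23 of the 32 genes. On either strand, TAATCC occurred in 11 of these 23 genes (Sag, Abca4, Cnga1, Gngt1, Crx, Cngb1, Gucy2e, Aipl1, Unc119, Guca1a and Gucy2f). Counted by window, it occurred in 11 of their 25 windows (44.0%), against 7.06% of all 32851 windows. It occurred in 4 of the 9 with a window among the genes nearly absent from the hippocampus (described with the brain results) and in 7 of the other 14. A match is a run of letters, not a measured binding site.

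Levels of the rod list in the retina spanned a wide range, led by the transducin alpha subunit. Gnat1, the alpha subunit of rod transducin, averaged 11252 ± 588 CPM (SD, n = 15), with a lowest value of 10544, a median of 11337 and a highest of 12800. Prph2, a tetraspanin of the disc rim, followed at 5031 ± 149 CPM (n = 15). Gnb1, the beta subunit, stood at 4812 ± 218 CPM (n = 15), and Sag, the rod arrestin, at 3782 ± 233 CPM (n = 15). The lowest levels belonged to Gucy2f, a retinal guanylate cyclase, at 470 ± 36.2 CPM and Rdh12, a retinol dehydrogenase, at 493 ± 18.3 CPM (both n = 15).

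Genes of different length are comparable only per kilobase of exon. On that scale Gnat1 remained the highest at 4834 CPM per kilobase, ahead of Sag at 2187, Pde6g at 1983 and Prph2 at 1888. Pde6g is the small inhibitory subunit of the phosphodiesterase, and its 900 exon bases set it above the catalytic subunits Pde6b (927 CPM per kilobase) and Pde6a (690). The gamma subunit of transducin, Gngt1, reached 831 CPM per kilobase. Gucy2e (96.6) and Gucy2f (57.9), the cyclases, closed the list. Exon lengths are the union over the GENCODE basic transcripts, so isoforms that the retina does not use lower these values.

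Together the 32 genes made up 6.29% to 7.08% of the scaled counts of a retina library. They varied little between animals. The coefficient of variation over the 15 libraries ran from 2.52% for Unc119, a lipid-binding carrier of transducin, to 8.11% for Reep6, a shaper of the endoplasmic reticulum. Around the means of the 4 sex and treatment groups, the median SD of the 32 genes was 0.070 on the log2 scale. It was 0.081 for the 221 genes at least as abundant as the lowest of them and 0.155 for all genes tested.

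**Figure D1:**
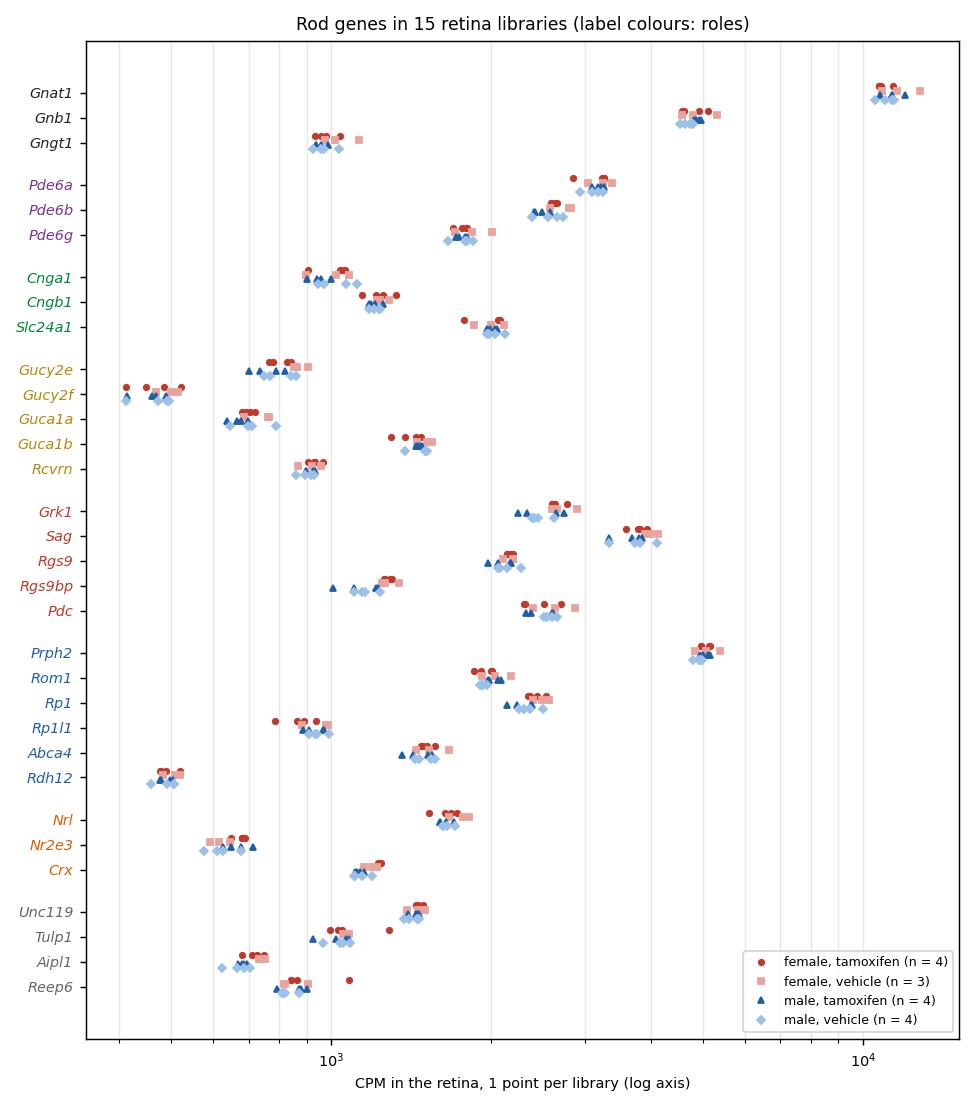
Levels of the 32 rod genes in the 15 retina libraries, in CPM on a log axis, with 1 point per library and symbols for the 4 sex and treatment groups. Each gene's points lie close together, from Gucy2f at 411 to 523 CPM up to Gnat1 at 10544 to 12800 CPM, and the groups overlap for most genes.

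Libraries did differ in small ways that ran across the list. Vehicle female 957 had the highest value of the 15 libraries for 15 of the 32 genes and lay above the median of the libraries for 31. Vehicle male 966 had the lowest value for 9 and lay above the median for 2. Over the list, the median gene stood 5.88% above its own median in library 957 and fell by 5.05% in library 966. Library 966 also held the highest summed level of 11 retinal pigment epithelium genes, 1327 CPM, against 192 CPM in library 957 and a range of 92.4 to 1327 CPM over all retinas. Other libraries varied in this respect. The median rod gene stood at -2.74% in library 960 (1296 CPM of epithelium genes) but at 1.5% in library 958 (803 CPM). In library 951 (116 CPM) it stood at 0.0%. A fit with the epithelium level as a covariate is given with the comparison of the sexes.

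The comparison of tamoxifen with vehicle asks whether RNA levels differed between the treatment groups when the tissue was collected. In the retina, none of the 32 rod genes passed an adjusted p of 0.05 in edgeR's quasi-likelihood test with the sexes averaged, where 0.0474% of all 14781 genes tested were called (7 genes). Of the rod genes, 9 had positive and 23 negative log2 fold changes, with a median of -0.021, against a median of 0.0026 for all genes. At an unadjusted p under 0.05 there were 2 rod genes, as against 7.14% of all genes. The interval furthest from 0 on the low side reached -0.19 (Gucy2e) and on the high side 0.20 (Nr2e3), so 95% intervals kept each gene's change between 0.878-fold and 1.145-fold. DESeq2 and 21 other settings called none of them either.

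Among the transcription factors, Nr2e3, a nuclear receptor that represses cone genes in rods, had the smallest unadjusted p of the list. Its values were 681, 648, 681 and 690 CPM in tamoxifen females and 615, 645 and 592 CPM in vehicle females. In males they were 676, 713, 648 and 626 CPM with tamoxifen and 677, 611, 626 and 578 CPM with vehicle. The female groups did not overlap and the male groups did. The log2 fold change with the sexes averaged was 0.11 (SE 0.040, unadjusted p = 0.0111, adjusted p = 0.496). Nrl, the factor that sets rod identity, had a log2 fold change of -0.051 (adjusted p = 0.839) and Crx one of 0.019 (adjusted p = 0.959).

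Among the cyclases and calcium sensors, Gucy2e showed the largest negative estimate. It was measured at 779, 766, 842 and 827 CPM in tamoxifen females and at 907, 865 and 853 CPM in vehicle females. Males gave 788, 702, 735 and 819 CPM with tamoxifen and 767, 858, 840 and 748 CPM with vehicle. All 4 tamoxifen females lay below the 3 vehicle females, while the males overlapped. The averaged log2 fold change was -0.10 (SE 0.042, unadjusted p = 0.0284, adjusted p = 0.617). The other members of this role, Gucy2f and the cyclase activators Guca1a and Guca1b, had negative estimates of -0.058, -0.080 and -0.057, and recoverin (Rcvrn), which restrains the visual pigment kinase, one of 0.023, with adjusted p between 0.755 and 0.957.

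In the other roles the values overlapped between treatments in each sex, apart from 2 genes in males. Gngt1, the transducin gamma subunit, stood at 958, 933, 1040 and 980 CPM in tamoxifen females, 975, 1131 and 1016 in vehicle females, 939, 959, 988 and 938 in tamoxifen males and 957, 1036, 970 and 925 in vehicle males. The high value of 1131 CPM was that of library 957. The averaged log2 fold change of Gngt1 was -0.057 (adjusted p = 0.851). Gnat1, with 10825, 10733, 10735 and 11404 CPM in tamoxifen females, 10877, 12800 and 11590 in vehicle females, 10758, 12008, 11347 and 11337 in tamoxifen males and 10544, 11351, 11003 and 11476 in vehicle males, had one of -0.036 (adjusted p = 0.915). Gnb1 had one of 0.018, and in males its 4 tamoxifen libraries (4810 to 4968 CPM) lay above the 4 vehicle libraries (4535 to 4805 CPM).

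Phosphodiesterase is the effector that transducin unleashes. Its catalytic subunit Pde6b was measured at 2593, 2596, 2637 and 2667 CPM in tamoxifen females, 2798, 2826 and 2580 in vehicle females, 2582, 2416, 2495 and 2404 in tamoxifen males and 2661, 2733, 2564 and 2387 in vehicle males. The groups overlapped, and the averaged log2 fold change was -0.062 (unadjusted p = 0.0766, adjusted p = 0.766). Pde6a, its partner, differed by 0.00060, and the inhibitory subunit Pde6g by -0.040 (adjusted p = 0.999 and 0.897). Of the channel that cyclic GMP opens, the alpha subunit Cnga1 stood at 1063, 1040, 904 and 1046 CPM in tamoxifen females, 896, 1081 and 1024 in vehicle females, 956, 900, 999 and 943 in tamoxifen males and 1120, 1065, 972 and 945 in vehicle males. The ranges overlapped in both sexes, with a log2 fold change of -0.046 (adjusted p = 0.935). The beta subunit Cngb1 (-0.012) and Slc24a1 (-0.0030), the exchanger that removes calcium from the outer segment, lay closer to 0.

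Shut-off proteins end the light response. Pdc (phosducin), which binds the transducin beta and gamma subunits, gave 2521, 2310, 2314 and 2707 CPM in tamoxifen females, 2397, 2875 and 2641 in vehicle females, 2374, 2614, 2608 and 2329 in tamoxifen males and 2664, 2608, 2547 and 2513 in vehicle males. The groups overlapped, with a log2 fold change of -0.078 (adjusted p = 0.784). Reads of Pdc may include some of 2310030A07Rik, an opposite-strand gene that overlaps it and averaged 18.1 estimated counts per retina library. Sag, the arrestin, stood at 3780, 3586, 3811 and 3930 CPM in tamoxifen females, 3894, 4123 and 3979 in vehicle females, 3839, 3334, 3794 and 3680 in tamoxifen males and 3726, 4104, 3819 and 3329 in vehicle males. These ranges overlapped as well, and the log2 fold change was -0.057 (adjusted p = 0.87). The kinase Grk1 (-0.010), the GTPase accelerator Rgs9 (-0.018) and its membrane anchor Rgs9bp (-0.017) had smaller estimates.

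Of the structural genes, Rp1l1, a microtubule-associated protein of the outer segment axoneme, had the smallest unadjusted p. Its values were 888, 937, 785 and 862 CPM in tamoxifen females, 882, 979 and 988 in vehicle females, 966, 909, 887 and 971 in tamoxifen males and 910, 992, 940 and 934 in vehicle males. The groups overlapped in both sexes, with a log2 fold change of -0.073 (adjusted p = 0.784). Its relative Rp1 had one of -0.042, Prph2 one of 0.013, the retinoid transporter Abca4 one of -0.034 and Rdh12 one of -0.023. Rom1, the partner of Prph2 at the disc rim, had an averaged estimate of -0.00040, but its 4 tamoxifen males (1970 to 2091 CPM) lay above the 4 vehicle males (1906 to 1968 CPM), and in females the estimate was -0.071 (adjusted p = 0.859).

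Among the trafficking genes, Reep6 gave 841, 1083, 841 and 865 CPM in tamoxifen females, 821, 905 and 817 in vehicle females, 901, 793, 880 and 870 in tamoxifen males and 817, 820, 869 and 809 in vehicle males. The value of 1083 CPM in female 952 stood alone, and the same library had the highest level of Tulp1, a protein of photoreceptor transport, at 1286 CPM against 925 to 1087 CPM in the other 14. Reep6 had a log2 fold change of 0.077 (adjusted p = 0.855), Tulp1 one of 0.0084, Unc119 one of 0.014 and Aipl1, the chaperone of phosphodiesterase, one of -0.011.

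By sex, edgeR called none of the rod genes in females, where 0.0406% of all genes were called, and none in males, where 0.0% were. DESeq2 called none in either sex. At an unadjusted p under 0.05 there were 4 rod genes in females (Gnat1, Guca1b, Rp1l1 and Nr2e3) and 0 in males, against 6.37% and 3.99% of all genes. The median log2 fold change was -0.037 in females and -0.011 in males, and leaving out male 964 turned the male median to 0.0081. The female median was nearest 0, at -0.018, without animal 957. The difference of the tamoxifen effect between the sexes was called for none of the rod genes, with 0.0% of all genes called, and 1 rod gene (Rom1) had an unadjusted p under 0.05, against 3.37% of all genes. Groups that did not overlap were found for 3 of the 32 genes in females (Nr2e3 and Crx above, Gucy2e below), against 6.06% of all genes in either direction. In males they were found for 2 (Gnb1 and Rom1, both above), against 2.9% of all genes.

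Other photoreceptor genes and the visual cycle gave similarly small numbers. Of 48 further photoreceptor genes tested, 12 had positive estimates with the sexes averaged and none was called, with a median of -0.024. Of 13 visual cycle genes, which regenerate the pigment's chromophore in the pigment epithelium and the glia, 10 had positive estimates and none was called, with a median of 0.097. Of 11 cone genes, 3 had positive estimates and none was called (median -0.031). Lens genes had positive estimates for 14 of 14 tested with none called, and summed to 163, 583 and 63.4 CPM in libraries 951, 959 and 962, all tamoxifen, against 2.65 to 17.7 CPM in the other 12. Without those 3 libraries the median of the rod genes was -0.042 and none was called.

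**Figure D2:**
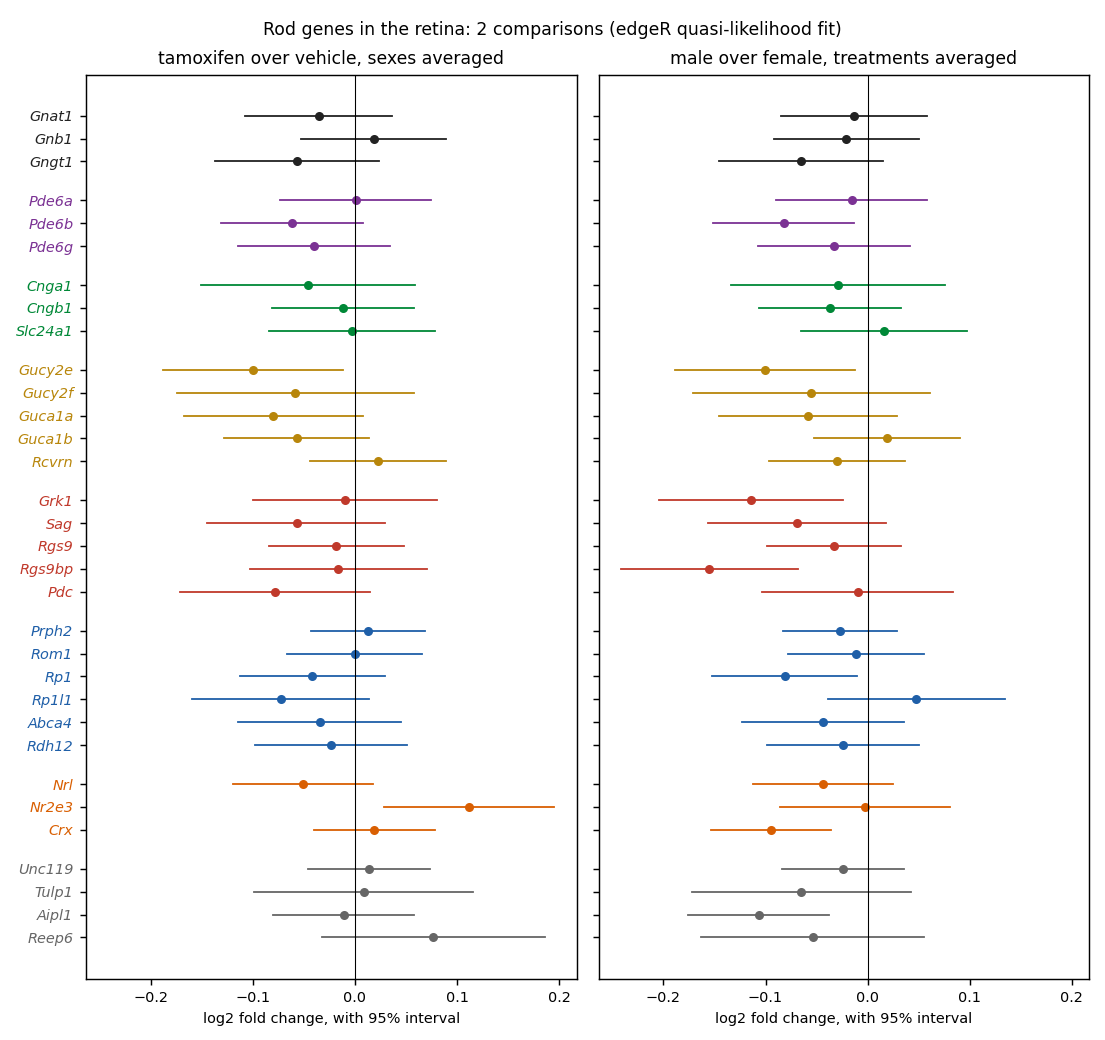
Log2 fold changes of the 32 rod genes in the retina with 95% intervals from edgeR's fit, for tamoxifen over vehicle (left) and male over female (right), coloured by role. The left estimates lie on both sides of 0 within -0.10 and 0.11, and 29 of the 32 right estimates lie below 0, down to -0.16 for Rgs9bp.

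Males had slightly lower estimates than females over most of the list. Of the 32 genes, 29 had negative log2 fold changes for male over female with treatments averaged, with a median of -0.035 against 0.0010 for all genes. None passed an adjusted p of 0.05 in edgeR, where 0.149% of all genes were called. At an unadjusted p under 0.05 there were 7 rod genes, against 13.1% of all genes. Scaling by library totals in place of TMM gave 25 negative estimates and a median of -0.021.

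Rgs9bp, Crx and Aipl1 were singled out after their values were seen. Rgs9bp, the anchor that tethers the GTPase accelerator to the disc membrane, was measured at 1258, 1289, 1304 and 1263 CPM in tamoxifen females and 1342, 1261 and 1246 CPM in vehicle females. Its males gave 1226, 1010, 1105 and 1216 CPM with tamoxifen and 1144, 1236, 1159 and 1106 CPM with vehicle. All 8 males lay below all 7 females, the 1 gene of the list for which the sexes did not overlap (0.156% of all genes), and the log2 fold change was -0.16 (SE 0.041, adjusted p = 0.171). Crx and Aipl1 had 6 of 7 females above all males, with female and male means of 1214 ± 29.1 and 1134 ± 30.2 CPM for Crx and of 727 ± 24.9 and 677 ± 24.1 CPM for Aipl1 (SD, n = 7 and n = 8). Their log2 fold changes were -0.095 (SE 0.028, adjusted p = 0.209) and -0.11 (SE 0.033, adjusted p = 0.22).

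The calls for this comparison rested on the tool and on the libraries. DESeq2, which called 0.896% of the genes it tested, called 2 rod genes, Rgs9bp (adjusted p = 0.0393) and Crx (adjusted p = 0.0361). Without the 3 lens-bearing libraries, edgeR called 0.426% of all genes and 1 rod gene, Rgs9bp, with a log2 fold change of -0.21 (adjusted p = 0.037). Over 22 alternatives, the adjusted p of Rgs9bp ran from 0.037 to 0.809 and that of Crx from 0.0361 to 0.809. The summed level of 11 pigment epithelium markers was 92.4 to 803 CPM in females (median 192) and 149 to 1327 CPM in males (median 664), and 10 of these 11 genes had higher estimates in males with none called. Estimates were also higher in males for 10 of 10 Mueller glia, 12 of 13 visual cycle, 13 of 14 lens and 10 of 11 choroid plexus genes, of which 1 was called (Cldn2, log2 fold change 0.60, adjusted p = 0.0184, a gene singled out after its values were seen). Of the neural lists, 3 of 12 bipolar and 16 of 48 further photoreceptor genes had higher estimates in males. So did 7 of 11 cone, 8 of 10 amacrine and horizontal and 5 of 10 ganglion cell genes. Some lists share genes, such as Rpe65 in the pigment epithelium and visual cycle lists, so their counts are not separate. The part of other tissues in the rod values was not tested. A fit with the pigment epithelium level as a covariate cannot separate that level from sex, because its median was higher in males. With the pigment epithelium level as a covariate, 18 of the 32 rod genes had negative and 14 positive estimates, the median was -0.010, and Rgs9bp had a log2 fold change of -0.092 (adjusted p = 0.809).

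Brain levels of the list ranged from 719 CPM for Gnb1 down to 0. Gnb1, a subunit of many brain G proteins, was read at 657 to 719 CPM in the cortex (median 703) and at 554 to 635 CPM in the hippocampus (median 583), or 14.6% and 12.1% of its mean retina level. By group it averaged 692 ± 23.5 (n = 4), 707 ± 13.2 (n = 3), 705 ± 8.88 (n = 3) and 691 ± 15.7 CPM (n = 4) in the cortex of tamoxifen females, vehicle females, tamoxifen males and vehicle males. In the hippocampus the same groups averaged 590 ± 21.8 (n = 4), 578 ± 13.8 (n = 3), 599 ± 27.2 (n = 4) and 578 ± 34.1 CPM (n = 3). Gnb1 thus differed little among the groups, with log2 fold changes for tamoxifen, sexes averaged, of -0.00080 in the cortex (adjusted p = 0.998) and 0.040 in the hippocampus (adjusted p = 0.85).

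Unc119 and Rgs9, which are also used by neurons, were present in the brain at 1.69% and 0.884% of their retina levels in the median cortex library. Unc119 ranged from 21.8 to 30.1 CPM in the cortex and 18.9 to 27.4 in the hippocampus, Rgs9 from 16.6 to 22.5 and 14.7 to 18.2. Their group means were 24.5, 23.3, 26.8 and 24.3 CPM for Unc119 and 19.8, 18.7, 17.8 and 19.3 CPM for Rgs9 in the cortex, in the order used for Gnb1. In the hippocampus they were 22.3, 21.8, 24.7 and 25 CPM for Unc119 and 16.9, 15.9, 15.7 and 17.0 CPM for Rgs9. Neither changed with tamoxifen at an adjusted p of 0.05 in either tissue. Their group ranges overlapped between treatments in both sexes in the cortex.

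The other 29 genes were taken as retina-restricted by textbook knowledge, and 15 of them nevertheless exceeded 0.5 CPM in at least 1 hippocampus library. Reep6 was read at 10.4, 8.10, 7.96 and 7.22 CPM in the cortex of tamoxifen females, 6.23, 6.91 and 5.60 in vehicle females, 7.03, 6.71 and 10.6 in tamoxifen males and 7.06, 6.45, 7.22 and 8.54 in vehicle males. Its hippocampus values were higher, from 10.1 to 13.4 CPM. Gucy2e (3.18 to 6.25 CPM in the cortex, 5.07 to 7.53 in the hippocampus), Rom1 (3.96 to 7.14 and 2.24 to 5.05), Rdh12 (0.898 to 3.32 and 2.01 to 2.95) and Grk1 (2.07 to 6.33 and 1.73 to 3.09) were also read in every library of both tissues. Whether reads of such low genes came from complete transcripts cannot be seen in gene counts.

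The remaining 14 genes lay under 0.5 CPM in each of the 14 hippocampus libraries: Gnat1, Gngt1, Pde6a, Pde6b, Cnga1, Guca1a, Rcvrn, Pdc, Prph2, Rp1, Rp1l1, Nr2e3, Tulp1 and Aipl1. This limit chose them by their hippocampus values and after those were seen, so their low level there is a description. Gnat1, the most abundant of the list in the retina, gave 40 counts over all hippocampus libraries, with 0 counts in 3 of them. Pdc gave 4 counts, Rp1l1 4, and Cnga1 and Nr2e3 1 each. Summed over the 14 genes, a hippocampus library held 16 to 57 counts, or 0.00140% to 0.00485% of the mean retina level.

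Because of that choice, the 14 genes cannot be used to compare the cortex with the hippocampus. A list of 10 textbook rod genes was drawn up without a hippocampus limit, but with earlier results of these data known. It held Gnat1, Gngt1, Pde6a, Pde6b, Pde6g, Cnga1, Sag, Grk1, Prph2 and Nrl. Their sum stood at 0.0298% to 0.160% of the retina level in cortex libraries (median 0.0485%). In hippocampus libraries it stood at 0.0143% to 0.0209% (median 0.0165%). These ranges did not overlap. For all 29 retina-restricted genes they did, at 0.0647% to 0.184% (median 0.0896%) and 0.0605% to 0.119% (median 0.0630%).

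Within the cortex, the 14 genes differed between libraries. In tamoxifen females the cortex libraries stood at 0.0320%, 0.140%, 0.138% and 0.112% of the mean retina level, and in vehicle females at 0.0245%, 0.0489% and 0.0147%. In tamoxifen males they stood at 0.0157%, 0.0237% and 0.0125%, and in vehicle males at 0.0339%, 0.109%, 0.0352% and 0.0443%. Libraries 952, 953 and 954 of the tamoxifen females and 964 of the vehicle males were thus above the other 10, and their exact 95% Poisson intervals, which cover counting error only (lowest bound 0.0983% in 964), did not reach the highest bound of the others (0.0562% in 957). The hippocampus libraries of the same 4 animals held 0.00243%, 0.00485%, 0.00199% and 0.00140%, where animal 953 had the highest and animal 964 the lowest of the 14 values.

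**Figure D3:**
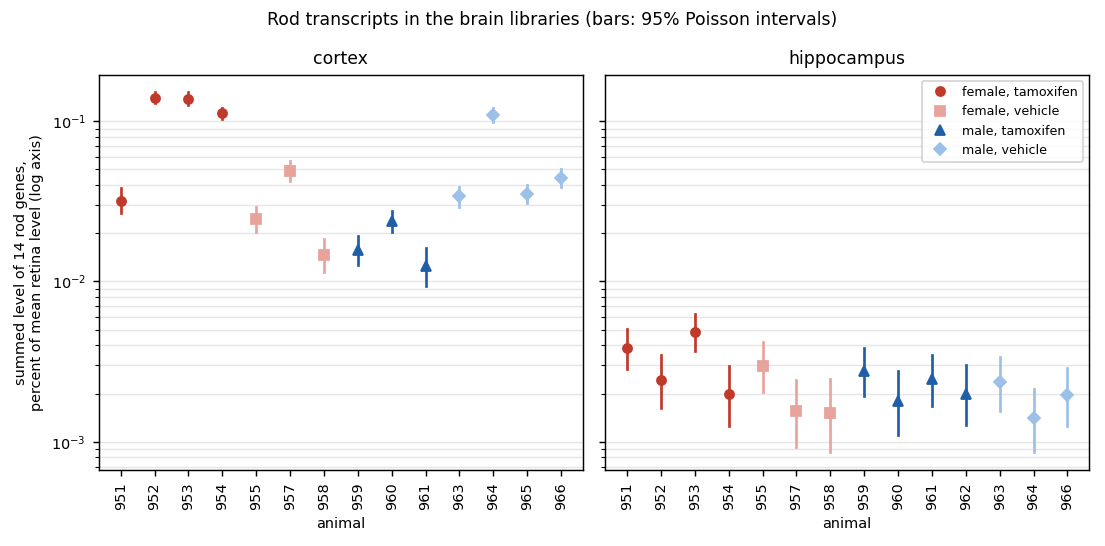
Summed level of the 14 rod genes in each cortex (left) and hippocampus (right) library, as a percent of the mean retina level on a log axis, with exact 95% Poisson intervals and symbols for sex and treatment. Cortex libraries 952, 953, 954 and 964 lie between 0.109% and 0.140%, the other cortex libraries at 0.0489% or less, and the hippocampus libraries at 0.00485% or less.

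Gnat1 showed the pattern by itself. Its cortex values were 3.41, 16.3, 19.7 and 15.2 CPM in tamoxifen females, 3.48, 7.57 and 1.59 in vehicle females, 2.11, 3.91 and 1.46 in tamoxifen males and 4.30, 14.6, 4.21 and 6.18 in vehicle males. The highest, in library 953, came from 218 counts and equalled 0.175% of the mean retina level. In the hippocampus its highest value was 0.207 CPM, from 8 counts. Sag was also highest in libraries 953, 952 and 954, above a hippocampus level of 0.855 to 2.08 CPM, with cortex values of 2.69, 7.62, 8.68 and 6.35 CPM in tamoxifen females, 4.15, 5.49 and 3.66 in vehicle females, 3.05, 2.67 and 5.52 in tamoxifen males and 2.93, 4.79, 3.56 and 5.06 in vehicle males.

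The proportions of the 14 genes in these cortex libraries can be set against those in the retina. In library 952, each of the 14 was read at 0.0789% (Tulp1) to 0.317% (Gngt1) of its retina level, with a median of 0.135%. In libraries 953, 954 and 964 the medians were 0.124%, 0.102% and 0.0969%, with lowest values of 0.0363% (Cnga1), 0.0250% (Cnga1) and 0.0427% (Rcvrn). Spearman's rho between a gene's CPM in the library and in the retina, over the 14 genes, was 0.85, 0.86, 0.72 and 0.92 in libraries 952, 953, 954 and 964. These are correlations across genes of 1 library, whose points share depth and gene length, and they describe the profile. Such a profile was not particular to these libraries: in the other 10, with fewer counts, rho was 0.73 to 0.83 in 7 and 0.51, 0.46 and -0.13 in 961, 959 and 958.

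The rise in those libraries ran through the list. All 14 genes had their highest cortex value in 952, 953 or 954, and for 7 of them (Gnat1, Gngt1, Pde6a, Pde6b, Pdc, Prph2 and Rp1) each of the 4 libraries lay above the other 10. Of the 15 retina-restricted genes with a higher hippocampus level, 6 did so (Pde6g, Cngb1, Slc24a1, Guca1b, Grk1 and Nrl). Gnb1, Unc119 and Rgs9 did not, with their highest cortex values in libraries 957, 960 and 963. The libraries were told apart by the rod genes themselves, so these counts are a description. The share of all genes with such a split of the cortex libraries was not computed.

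**Figure D4:**
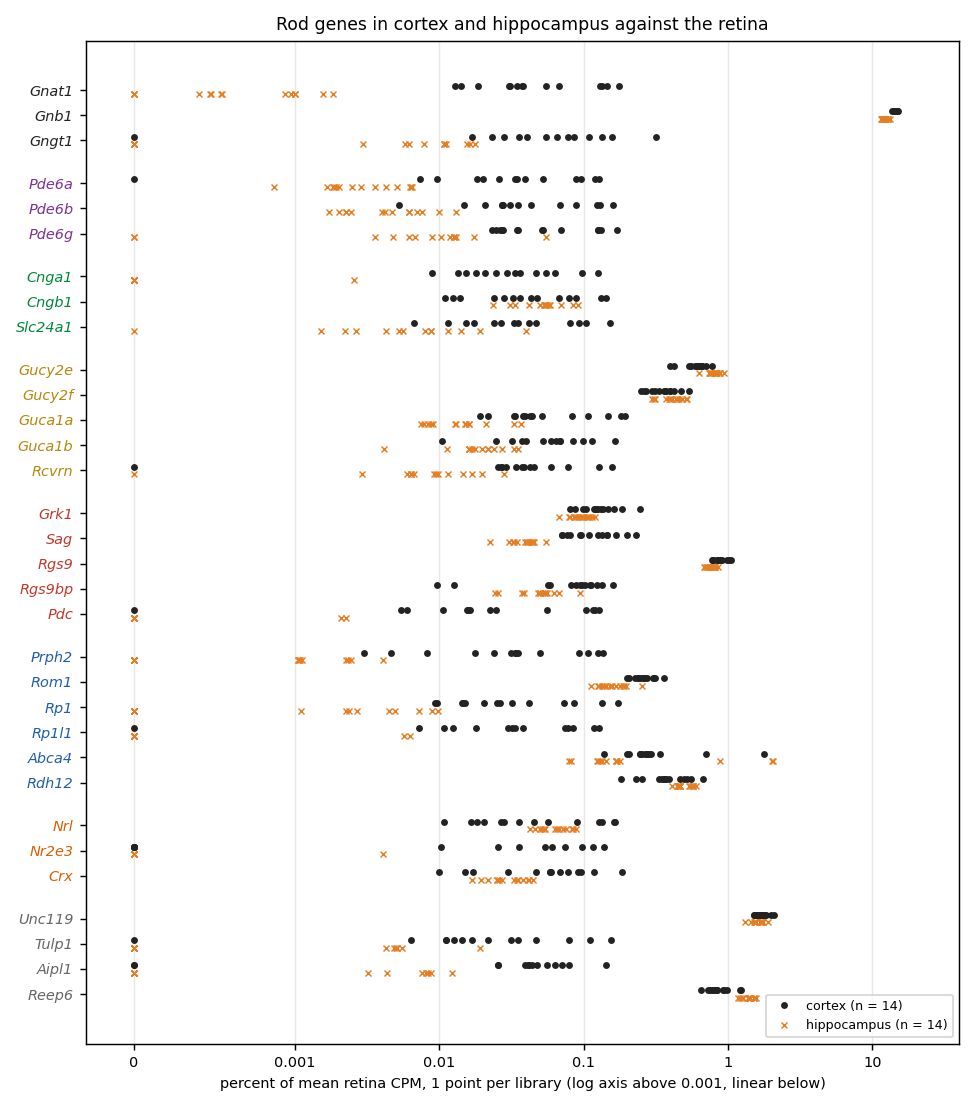
Level of each rod gene in every cortex library (filled points) and hippocampus library (crosses) as a percent of its mean retina CPM, on an axis that is logarithmic above 0.001% and linear below. Gnb1 lies near 10%, Unc119, Rgs9 and Reep6 near 1%, and genes such as Gnat1, Pdc and Prph2 reach 0.175%, 0.128% and 0.136% in the cortex but 0.00412% or less in the hippocampus.

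Summed markers of other tissues overlapped between these 4 cortex libraries and the rest. The pineal gland, which shares several rod genes, was represented by 8 markers that summed to 7.53 to 11.6 CPM in libraries 952, 953, 954 and 964 and to 5.89 to 10.4 CPM in the other 10. Over the 14 cortex libraries, Bsx had 0 counts, Lhx4 2, Tph1 9 (3 libraries) and Aanat 35 (9 libraries), and the highest values of Tph1 (0.543 CPM) and Aanat (0.633 CPM) were those of library 953. The other 4 had counts in each library, with Asmt at 0.138 to 0.717 CPM, Chrnb4 at 0.115 to 1.07, Gch1 at 0.803 to 2.14 and Ddc at 4.62 to 9.12. Pigment epithelium markers summed to 6.35 to 11.4 CPM in the 4 libraries and 7.06 to 27.5 CPM in the others. Lens markers summed to 7.72 to 11 and 7.92 to 11 CPM, and the 11 cone genes, which are far scarcer than rod genes in the retina (1735 to 1945 CPM in sum), to 4.59 to 6.87 and 3.10 to 30.6 CPM. Of the cone genes, Kcne2 reached 27.2 CPM in library 960, and the next highest value of any was 2.62 CPM (Gngt2). In that library Rdh5 alone gave 18.9 CPM of the pigment epithelium sum of 27.5 CPM. The cone genes Opn1sw, Arr3, Gnb3, Gngt2, Pde6c and Pde6h were highest in library 952, 953 or 954, at 0.543 to 2.62 CPM. Opn1mw, Gnat2, Cnga3 and Cngb3 were highest in other libraries, at 0.297 to 0.691 CPM. The source of the rod transcripts in the cortex was not tested.

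Of the 4 libraries 3 were tamoxifen females and the other a vehicle male. Of the rod genes, 29 passed edgeR's filter on low counts in the cortex (not Cnga1, Nr2e3 and Aipl1), some of them through these libraries. With the sexes averaged, none was called, against 0.606% of all genes. In females none was called, against 0.375% of all genes, and the largest estimate was that of Pdc at 3.14 (SE 0.76, adjusted p = 0.108). In males no rod gene was called, against 0.0272%, and Prph2 had an estimate of -2.28 (SE 0.63, adjusted p = 0.409). The difference between the sexes, a contrast added after estimates of opposite sign were seen in the sexes, was called for none, with 0.0% of all genes called. At an unadjusted p under 0.05 there were 2 rod genes with the sexes averaged, 17 in females, 8 in males and 21 for the difference, against 9.39%, 8.5%, 6.82% and 5.5% of all genes. The largest estimates of the difference were -5.68 for Pdc (SE 1.11, adjusted p = 0.158) and -4.22 for Prph2 (SE 0.84, adjusted p = 0.161).

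In the cortex Pdc was read at 0.627, 2.63, 3.26 and 3.05 CPM in tamoxifen females, 0.268, 0.416 and 0.138 in vehicle females, 0, 0.400 and 0.153 in tamoxifen males and 0.574, 2.93, 0.396 and 1.41 in vehicle males. The tamoxifen females lay above the vehicle females, at 3.26 CPM or less against 2310 to 2875 CPM in the retina, and the males overlapped at 0.396 to 0.400 CPM. Prph2 followed the same libraries, with 1.70, 6.85, 5.43 and 6.35 CPM in tamoxifen females, 1.21, 2.50 and 0.415 in vehicle females, 0.234, 0.889 and 0.153 in tamoxifen males and 1.78, 4.69, 1.58 and 1.71 in vehicle males. Its female groups overlapped and its male groups did not. The share of all genes whose treatment groups did not overlap was not computed for the cortex.

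A fit with no filter kept all 32 rod genes. In that fit 30 had positive estimates in females (median 1.23) and 26 negative ones in males (median -0.75), and 29 were negative for the difference (median -2.32). Without the 4 libraries with Gnat1 above 10 CPM, 17 of 29 were positive in females (median 0.28) and 23 of 29 negative in males (median -0.29). For the difference, 22 of 29 were negative (median -0.62). Gnat1 is itself a rod gene, so smaller rod estimates follow in part from that choice of libraries. The choice also left 1 tamoxifen female, animal 951. This fit therefore cannot show whether the estimates rest on those libraries, and no conclusion is drawn from it.

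Choroid plexus genes had estimates of the opposite sign to most rod genes in the same cortex comparisons. Of 11, none was positive in females (median -2.17), 11 were in males (median 2.83) and 11 for the difference (median 5.0), with none called. Their sum was far higher in a single library of vehicle females (958, 2237 CPM) and of tamoxifen males (960, 5210 CPM). The other libraries of these groups held 394 and 503 CPM, and 349 and 455 CPM. Tamoxifen females held 375 to 391 CPM and vehicle males 422 to 765 CPM. Without the 3 cortex libraries rich in Ttr, a choroid plexus transcript, the rod genes had medians of 1.14 in females, -0.96 in males and -2.18 for the difference, over the 31 tested, and none was called.

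Some settings did call rod genes in the cortex. With no filter on low counts, 1 was called in females (Pdc, adjusted p = 0.0315), against 0.337% of all genes, and 2 for the difference (Pdc and Prph2, both adjusted p = 0.0147), against 0.0316%. Without animal 951, the tamoxifen female with few rod transcripts, 2 were called in females (Pde6b, adjusted p = 0.0258, and Pdc, adjusted p = 0.0296), against 0.409%, and 2 for the difference (Pdc and Prph2, adjusted p = 0.032), against 0.0341%. DESeq2 called 2 for the difference (Pdc, adjusted p = 0.000489, and Pde6b, adjusted p = 0.019), against 0.0369%. Over 20 alternatives, the adjusted p of Pdc ran from 0.0296 to 0.801 in females and from 0.000489 to 0.854 for the difference, that of Pde6b from 0.0258 to 0.91 and from 0.019 to 0.997, and that of Prph2 from 0.0147 to 0.854 for the difference. Without the 4 libraries with Gnat1 above 10 CPM, 1 tamoxifen female remained and was assumed to vary like the other libraries. Pdc then had estimates of 1.20 in females and -3.12 for the difference. The libraries were left out for the level of a rod gene, so no conclusion is drawn from these estimates.

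In the hippocampus 16 rod genes passed the filter, and none passed the test for a change with tamoxifen. With the sexes averaged, 0.0652% of all 15339 genes tested were called, in females 0.013%, in males 0.0% and for the difference between the sexes 0.0%, and the rod genes called were 0 in each. At an unadjusted p under 0.05 there were 1, 1, 0 and 2 rod genes in these comparisons, against 7.84%, 5.5%, 5.73% and 3.02% of all genes. The estimates with the sexes averaged ran from -0.12 to 0.46 on the log2 scale, and Sag, the arrestin, had one of 0.090 (SE 0.15, adjusted p = 0.925). DESeq2 called none and gave adjusted p-values to 11 of the rod genes with the sexes averaged. A fit with no filter, which tested all 32, called none in any of the 4 comparisons. Gnat1, with at most 8 counts in a library, was among the 16 genes that fell under the filter.

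Abca4, which moves retinoids across the disc membrane, had a brain pattern of its own. In the hippocampus it was read at 30.3, 1.87, 2.16 and 2.58 CPM in tamoxifen females, 2.51, 1.90 and 30.8 in vehicle females, 2.51, 1.19, 1.97 and 13.2 in tamoxifen males and 2.70, 2.01 and 1.24 in vehicle males. The 3 high libraries were 951, 958 and 962, and they held 1898, 2091 and 1044 CPM of Ttr, the leading transcript of the choroid plexus, against 27.8 to 122 CPM in the other 11. In the cortex Abca4 stood at 26.6 CPM in library 960 and 10.6 CPM in library 958, where Ttr was at 2686 and 1131 CPM, and between 2.07 and 5.12 CPM in the other 12. Its highest brain value equalled 2.05% of its retina level. The log2 fold change with tamoxifen, sexes averaged, was 0.46 in the hippocampus (SE 0.78, adjusted p = 0.925) and 0.49 in the cortex (SE 0.41, adjusted p = 0.776). The part of choroid plexus tissue in these values was not tested.

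**Figure D5:**
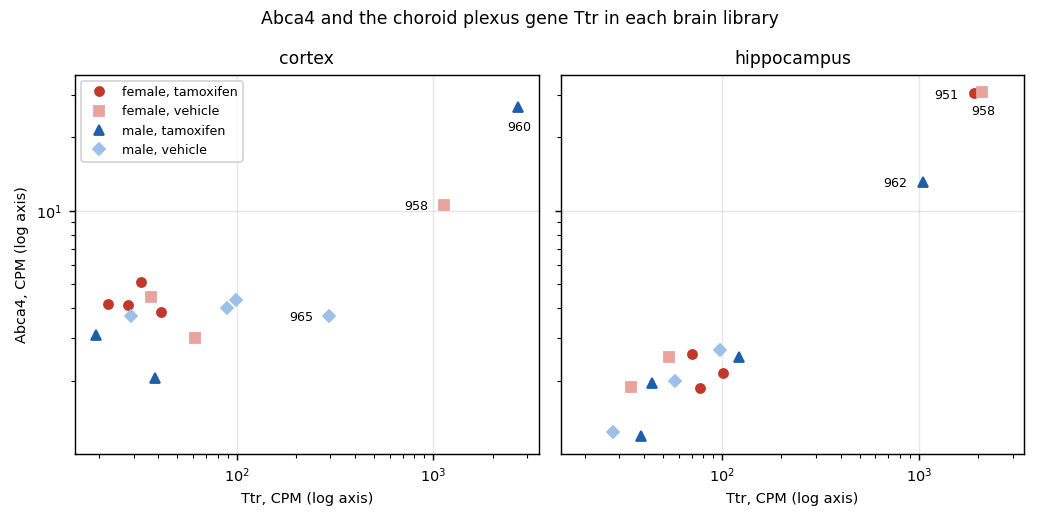
Abca4 against Ttr in each cortex (left) and hippocampus (right) library, in CPM on log axes, with symbols for sex and treatment and numbers for libraries rich in Ttr. Hippocampus libraries 951, 958 and 962 and cortex libraries 958 and 960 hold both at high levels, while cortex library 965, with Ttr at 294 CPM, has Abca4 at 3.71 CPM.

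Rom1 completes the members with the most cortex counts. Its cortex values were 4.75, 4.71, 7.14 and 6.22 CPM in tamoxifen females, 5.09, 5.16 and 5.46 in vehicle females, 4.10, 6.09 and 4.91 in tamoxifen males and 6.03, 4.50, 3.96 and 5.30 in vehicle males. These groups overlapped, with a log2 fold change of 0.077 (SE 0.14, adjusted p = 0.918). Libraries 953 and 954 were high, but 952 and 964 were not, and the hippocampus held 2.24 to 5.05 CPM.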

How the data were processed

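RNA from the retina, cortex and hippocampus was sequenced after AllPrep extraction and TruSeq v2 library preparation, per the labels' protocols. The authors deposited 1 table per tissue of expected counts per gene, as estimated from the reads and not normalized. Per the file headers the gene models are those of RefSeq. GRCm38, mm10 and DESeq are named, without a role, in the submitters' processing notes. Aligner, counting program and strand setting: not given in the sources used here. Reads of overlapping genes therefore cannot be told apart.

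Counts were rounded and tested per tissue with edgeR 4.0.16 (R 4.3.3): quasi-likelihood F test, 4 sex and treatment groups, low counts filtered by filterByExpr (minimum 10, total 15), TMM scaling, and Benjamini-Hochberg adjustment over all genes tested at 0.05. Treatment effects were averaged over the sexes, taken within each sex and compared between them. Replicates are separate animals. Alternatives used DESeq2 1.42.0, limma 3.58.1, other scaling, no filter, and left-out libraries. The cortex library of animal 962 was left out for its total under 1000000, and animal 965 has no hippocampus values among those analysed. Exon lengths came from GENCODE, promoters from RefSeq (GRCm38.p6). The fits were tested on simulated data.

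Values are given for the member of each role with the smallest unadjusted p in the retina, for any member called, for the 4 retina-restricted members with most cortex counts, and for Gnb1, Unc119, Rgs9, Gnat1 and Sag. Members, lists and rules were chosen with earlier results of these data known.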

Additional observations from a re-analysis of the deposited data

Results flagged for a closer look

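In groups of 4 libraries, the highest or lowest value was marked where its gap to the nearest library exceeded Dixon's 95% critical share of the group's range. Of 104 groups examined, 9 were marked, and chance marks about 1 in 20.

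In the retina of tamoxifen females, animal 953 had the lowest Pde6a (2854 CPM, next 3232), Cnga1 (904 CPM, next 1040) and Slc24a1 (1779 CPM, next 2061). Animal 954 had the highest Gnat1 (11404 CPM, next 10825) and animal 952 the highest Reep6 (1083 CPM, next 865). In vehicle males, animal 966 had the lowest Guca1b (1375 CPM, next 1500).

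In the cortex of vehicle males, the 14 rod genes that stay under 0.5 CPM in the hippocampus stood at 0.109% of their mean retina level in animal 964, with the next library at 0.0443%. In the hippocampus, Abca4 was highest at 30.3 CPM in tamoxifen female 951 (next 2.58) and at 13.2 CPM in tamoxifen male 962 (next 2.51).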

How the results depend on the processing

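The number of rod genes called was computed for 13 comparisons under 266 alternatives in all and stayed at 0 in 259. The exceptions were the male against female comparison in the retina (2 with DESeq2, 1 without the libraries rich in lens transcripts), tamoxifen in cortex females (1 with no filter on low counts, 0 to 2 when each animal was left out) and the difference between the sexes in the cortex (2 with DESeq2, 2 with no filter, 0 to 2 when each animal was left out). In the brain DESeq2 gave few rod genes an adjusted p, 6 in the cortex and 11 in the hippocampus with the sexes averaged. The cortex library sum over the 29 retina-restricted genes had a median of 0.0896% of the retina level, moving to 0.0485% over 10 textbook rod genes and 0.0345% over the 14 genes under 0.5 CPM in the hippocampus. In the hippocampus the median of 0.0630% moved to 0.0165% and 0.00217%. The 14-gene sum leaves out every gene above 0.5 CPM in a hippocampus library. The 10-gene sum leaves out some of these but keeps Pde6g, Grk1, Sag and Nrl. Scaling by library totals gave 0.0889% and 0.0631%. The differences between the sexes in the brain, the fit without libraries with Gnat1 above 10 CPM, the pigment epithelium covariate and the 14-gene sum were chosen after seeing the data. The list of 10 textbook rod genes was drawn up with earlier results of these data known. Treatment could not be analysed in pairs because treatment groups share no animals. The tissues came from the same animals, but no paired test between tissues was run. Counts of 0 to a few reads per library limit the brain values of the rarest genes.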
